A study of Mus musculus with 12 samples.

Results

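The miR-297, miR-466, miR-467 and miR-669 families are the microRNAs of the large cluster inside the mouse gene Sfmbt2, and their levels were followed in 4T1 mammary tumours. The members were all mature miRNAs of the deposited count table whose names begin with 1 of the 4 family numbers and that had at least 1 read. That gave 78 of the 1123 mature names with a read. The 4 families are called the cluster here, including the few members whose hairpins lie on other chromosomes. The miR-297 family had 6 names, miR-466 had 31, miR-467 had 13 and miR-669 had 28. A further 2 names, miR-669j and miR-669k-3p, had no read, which allows a level of up to 0.207 CPM (counts scaled to a common library size) over the 6 libraries (3 counts, counting error only).

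The stress group held tumours of Balb/c mice restrained for 2 hours a day on 28 consecutive days, and the control group held tumours of untreated Balb/c mice. Both groups carried 4T1, a mouse mammary carcinoma line, and all tumours were removed 35 days after inoculation. Each group had 3 miRNA libraries and 3 mRNA libraries. The labels name no separate mouse for each tumour and do not tie a miRNA library to an mRNA library, so p-values measure the spread between these libraries. The stress miRNA libraries held 2674483, 2010794 and 1738056 counts and the control miRNA libraries 2090783, 2772685 and 3202224. The 6 epithelial marker genes, fitting for 4T1 cells, were abundant in the mRNA libraries, with means on the deposited log2 scale from 10.26 (Cldn4) to 13.98 (Krt18) in stress tumours and from 10.33 to 13.87 in control tumours. Of the 6, 3 were higher and 3 lower in stress, and 0 were called. Krt7 averaged 11.88 in stress and 12.24 in control tumours (limma adjusted p = 0.221). Every stress library was below every control library, by a margin of 12.153 against 12.157, where 12.3% of all tested genes did the same. The libraries come from whole tumours, so fewer cells of a type and less RNA per cell cannot be told apart.

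A miRNA hairpin is cut into a duplex whose strands come from its 5p and its 3p arm, and usually one of them is loaded into an Argonaute protein while the other is lost. The loaded strand finds its target mRNAs mainly through its seed, the bases from the second to the eighth. Sfmbt2 encodes a Polycomb-group protein with MBT repeats, and in mice the gene is imprinted, with expression from the paternal copy in extraembryonic tissue. Its intronic miRNA cluster is known in rodents, where the hairpins multiplied in tandem, and in mice the cluster is needed for normal growth of the placenta.

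The rows of these families name 82 hairpins, among them mir-669j, whose only strand had no read. In GENCODE M21 on GRCm38, 70 of them lie on the plus strand inside Sfmbt2 (chr2:10370510-10595253). They fill chr2:10466663-10518279, a stretch of 51617 bases within a single intron of 62472 bases. This is intron 11 of the transcript ENSMUST00000116594.8 and intron 10 of ENSMUST00000041105.6. Hairpin starts there are a median of 298.5 bases apart. The copies are uneven: mir-669a has 12, mir-467a 10 and mir-466b 8, while mir-467e, mir-467c and mir-669c have 1 each. A further 10 hairpins lie on other chromosomes, among them mir-466i on chromosome 13 and mir-466k on chromosome 3. The hairpins mir-466a and mir-466c-3 were not matched to the annotation. Counted by mature name, 64 were placed within Sfmbt2, including any name that the unmatched mir-466c-3 shares with hairpins there. Of the others, 9 arose only elsewhere, 3 arose from several places and 2 had no matched hairpin.

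Because of the copies, many names could not be separated. The counts of 20 names were identical in all 6 libraries to those of at least 1 other name. They formed 9 sets, such as miR-467a-5p with miR-467b-5p (6656 reads each) and miR-669a-5p with miR-669p-5p (5033 reads each). Further sets were miR-669a-3p with miR-669o-3p, miR-467a-3p with miR-467d-3p, miR-466b-3p with miR-466c-3p and miR-466p-3p, and miR-297a-3p with miR-297b-3p and miR-297c-3p. The last 3 were miR-466b-5p with miR-466o-5p, miR-466d-5p with miR-466n-5p, and miR-466m-5p with miR-669m-5p. Each set was counted once, which left 67 distinct members. The 157 deposited rows of the families summed to 268739 reads, the 78 names to 68268 and the 67 distinct members to 45279.

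RefSeq's table for GRCm38.p6 held the mature sequences of 8 members, all of hairpins outside Sfmbt2. Printed here are 6 of them, to show the 2 kinds of base composition in these families and how close their seeds are. They are written 5′ to 3′ with the seed in capitals.
miR-466i-3p (chr13:17747552-17747573, plus strand): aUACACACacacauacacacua
miR-467f (chr11:69635419-69635439, minus strand): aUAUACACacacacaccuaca
miR-466k (chr3:85467396-85467418, plus strand): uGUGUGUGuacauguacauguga
miR-466j (chr10:60960802-60960824, plus strand): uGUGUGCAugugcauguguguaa
miR-467h (chr9:115381898-115381919, plus strand): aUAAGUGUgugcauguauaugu
miR-669n (chr3:115979905-115979924, plus strand): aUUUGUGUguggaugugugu

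The first 2 sequences are almost all A and C: 86.4% of miR-466i-3p and 85.7% of miR-467f. The other 4 are rich in G and U, from 68.2% in miR-467h to 90% in miR-669n. Of the 1679 mature miRNAs in that table, 0.298% held at least 80% A and C and 1.67% at least 80% G and U. Of the 4 sequences rich in G and U, only miR-669n reached that 80%. The median share of G and U over the 1679 was 54.5%. The 8 seeds all differ from each other, although UACACAC of miR-466i-3p and UAUACAC of miR-467f share most letters. Only the seed of miR-467h, UAAGUGU, occurs in another entry of the table, miR-668-5p. Of the 6, miR-466k averaged 21.2 ± 3.46 CPM in stress and 18.2 ± 3.54 in control tumours (SD, n = 3 each). The members miR-467f, miR-467h and miR-669n had 6, 15 and 3 reads over all libraries.

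Levels are given below as TMM-scaled CPM; TMM is a library scaling that is robust to a few very abundant miRNAs. The cluster as a whole made up 3500, 3241 and 3296 CPM in the stress tumours, against 3306, 2654 and 2932 in the control tumours. The means were 3345 ± 137 and 2964 ± 327 (SD, n = 3 each), a log2 ratio of 0.17, and the groups overlapped. The ratio was 0.29 without control library 1 and 0.10 without control library 2. Names within Sfmbt2 alone, a set chosen after seeing the data, summed to 3241, 2949 and 2993 CPM in stress tumours. In control tumours they summed to 2934, 2398 and 2631. For this set the groups did not overlap, by a narrow margin, with a log2 ratio of 0.21, and the difference was not tested. Over all libraries miR-669 gave 42.0% of the cluster's reads, miR-467 27.9%, miR-466 27.4% and miR-297 2.64%. The 4 most abundant distinct members carried 46.2% of the reads and the 12 most abundant 73.7%.

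By family, the sums leaned to both sides. Summed miR-467 reached 1095, 995 and 936 CPM in stress tumours, against 879, 674 and 709 in control tumours. All stress libraries lay above all control libraries, with a log2 ratio of 0.42. Summed miR-669 averaged 1412 ± 105 in stress and 1237 ± 125 in control tumours, a log2 ratio of 0.19. Summed miR-466 averaged 837 ± 20.3 in stress and 895 ± 89.4 in control tumours, a log2 ratio of -0.10. Summed miR-297 averaged 88.0 ± 7.82 in stress and 78.4 ± 10.3 in control tumours, a log2 ratio of 0.17 (SD, n = 3 in each case). The last 3 families overlapped between the groups. Leaving out each library in turn gave log2 ratios of 0.35 to 0.57 for miR-467, 0.12 to 0.30 for miR-669, -0.17 to -0.00297 for miR-466 and 0.07 to 0.29 for miR-297. No test was made on these sums or on the difference between families.

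The most abundant member was miR-467a-5p, which ranked 97th by level among the 462 miRNAs tested. It had 636, 561 and 524 CPM in stress tumours, against 466.04, 320 and 321 in control tumours, so every stress library was above every control library. The next were miR-669c-5p with 443, 341 and 461 in stress and 371, 244 and 302 in control tumours, and miR-669a-5p with 428, 339 and 402 against 370, 278 and 303. Both of these 5p strands overlapped between the groups. The partner strand miR-669a-3p had 287, 242 and 206 CPM in stress tumours, against 279, 307 and 307 in control tumours. It was lower on average in stress, the opposite of its 5p partner. The median tested member stood at 31.9 CPM, against 65.2 for all tested miRNAs, and 13 distinct members were above that overall median.

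**Figure D1:**
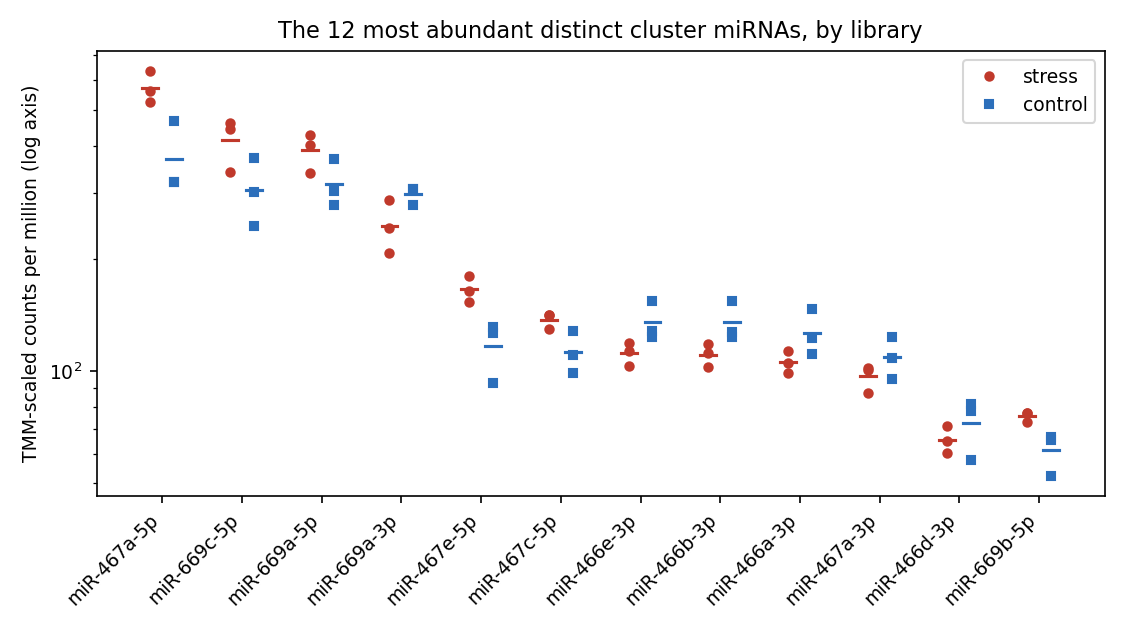
TMM-scaled CPM (log axis) of the 12 most abundant distinct cluster miRNAs in each library, stress as circles left of control as squares, with a bar at each group's mean. The 5p strands miR-467a-5p, miR-467e-5p, miR-467c-5p and miR-669b-5p had all stress libraries above all control libraries, where 12.1% of all tested miRNAs did so. The strands miR-466e-3p and miR-466b-3p, with nearly the same reads (1823 and 1814 in all), had all stress libraries below, where 14.3% of all tested miRNAs did so.

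No cluster miRNA passed the test between stress and control. Of the 67 distinct members, 43 (54 names) had enough reads to be tested by edgeR's quasi-likelihood test. With Benjamini-Hochberg adjustment at 0.05, 0 of them were called higher and 0 lower, where 0% of all 462 tested miRNAs were called in either direction. At an unadjusted p under 0.05, 2 members were higher and 1 lower, against 8.66% of all tested miRNAs higher and 15.2% lower. DESeq2 called 10 miRNAs higher and 34 lower, with 0 cluster members among them. By sign, 27 members were higher and 16 lower in stress, with a median log2 fold change of 0.14 against 0.02 for all tested miRNAs.

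The smallest p in the cluster belonged to miR-467a-5p, with a log2 fold change of 0.64 ± 0.20 (SE) and an edgeR adjusted p of 0.165. Leaving out control library 1 raised the change to 0.87 with an edgeR adjusted p of 0.0131. Testing without a filter on low counts gave 0.66 with 0.0262. Without stress library 2 or 3 the change was 0.67 or 0.70, short of the threshold (edgeR adjusted p = 0.260 and 0.322). Without stress library 1, control library 2 or control library 3, miR-467a-5p changed less, by 0.54, 0.55 and 0.54 (edgeR adjusted p = 0.330, 0.408 and 0.369). Its relative miR-467e-5p had 180, 153 and 164 CPM in stress tumours, against 131, 92.6 and 126 in control tumours. That was a log2 fold change of 0.50 ± 0.19 (edgeR adjusted p = 0.181). The opposite arm miR-467e-3p had 11.0, 12.9 and 8.21 CPM in stress tumours, against 19.2, 24.8 and 13.4 in control tumours. Its log2 fold change was -0.82 ± 0.31 with the same edgeR adjusted p of 0.181, so both arms of 1 hairpin leaned in opposite directions without passing the threshold.

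The other members with the smallest p on the higher side were again 5p strands. The log2 fold change was 0.46 ± 0.20 for miR-466c-5p, 0.49 ± 0.22 for miR-297a-5p and 0.44 ± 0.22 for miR-669c-5p, with edgeR adjusted p from 0.212 to 0.262. In miR-297a-5p the stress libraries had 24.5, 24.9 and 24.6 CPM, against 20.6, 14.2 and 17.9 in the control libraries. On the lower side all were 3p strands. The log2 fold change was -0.49 ± 0.21 for miR-466i-3p, -0.74 ± 0.37 for miR-467c-3p, -0.44 ± 0.22 for miR-466f-3p and -0.74 ± 0.40 for miR-669a-3-3p, with edgeR adjusted p from 0.214 to 0.288. For miR-466i-3p, the A and C repeat strand printed above, the stress libraries had 19.3, 20.9 and 19.6 CPM, against 23.8, 33.2 and 27.05 in the control libraries.

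The filter on low counts kept members down to 67 reads in all. Just inside it, miR-669h-5p had 67 reads and the largest positive log2 fold change of the cluster, 0.85 ± 0.45 (edgeR adjusted p = 0.288). The next, miR-669b-3p, had 80 reads and a log2 fold change of -0.10. Just outside were miR-466j with 62 reads and miR-466m-3p with 60. The filter left out 24 distinct members, with 3 to 62 reads each. When all miRNAs were tested without the filter, edgeR called 0 of these 24.

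The split by arm was seen in these values and then counted, so the counts describe it and are no independent test. Among 24 tested 5p members, 23 were higher in stress, with a median log2 fold change of 0.27. The exception, miR-466i-5p, comes from chromosome 13 and not from Sfmbt2. It had 42.3, 70.6 and 81.4 CPM in stress tumours, against 129, 40.8 and 44.0 in control tumours, so its log2 fold change of -0.14 went with 1 high control library. Among 16 tested 3p members, 14 were lower in stress, with a median of -0.27. The other two were miR-669p-3p at 0.20 ± 0.29 and miR-466h-3p at 0.02 ± 0.27. A further 3 tested members name no arm.

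Within Sfmbt2 alone, 21 of 21 tested 5p members were higher and 12 of 14 tested 3p members lower. All stress libraries lay above all control libraries for 5 of these 21, where 12.1% of all tested miRNAs did so. They lay below for 5 of the 14, where 14.3% of all tested miRNAs did so. Over all 4 families the counts were 6 of 24 and 6 of 16. Among all other miRNAs, 97 of 183 tested 5p names (53.0%) and 89 of 183 tested 3p names (48.6%) were higher, with median log2 fold changes of 0.03 and -0.03.

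**Figure D2:**
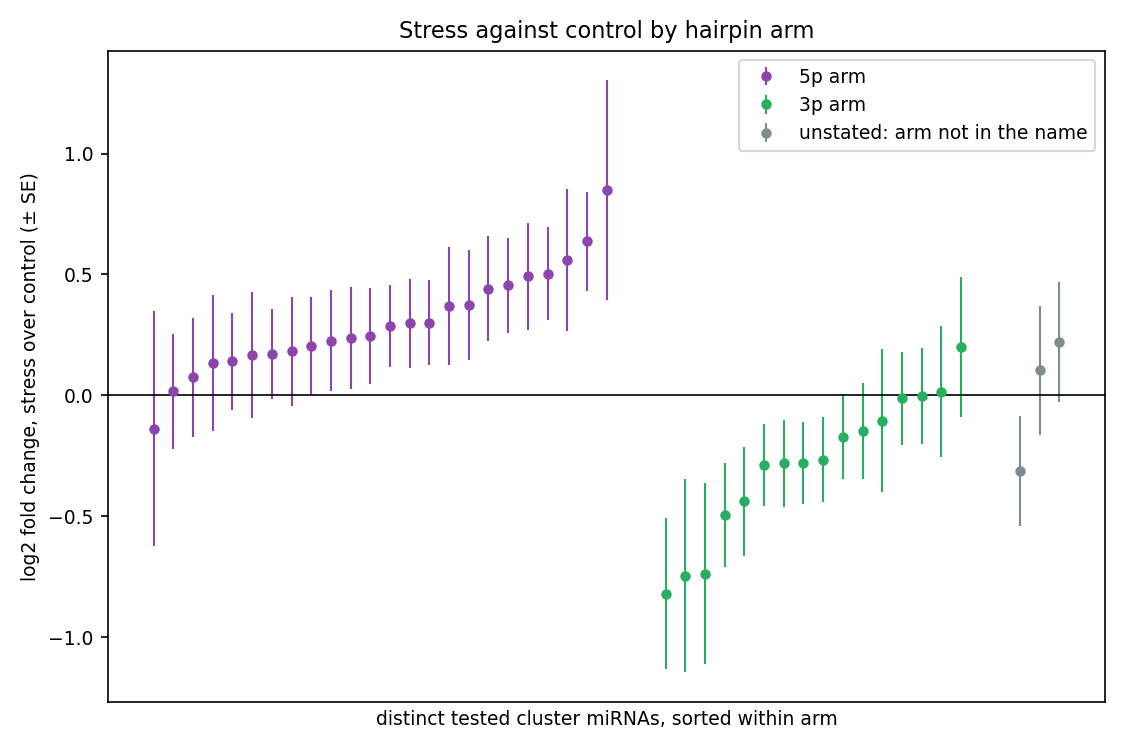
Log2 fold change of stress over control with its SE for each of the 43 distinct tested cluster miRNAs, sorted within the 5p arm, the 3p arm and names without an arm. Of the 5p members 23 of 24 lie above 0, and of the 3p members 14 of 16 lie below 0.

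In sums, the 5p members made up 2443, 2230 and 2369 CPM in stress tumours, against 2163, 1527 and 1674 in control tumours, a log2 ratio of 0.39. The 3p members made up 991, 941 and 850 in stress tumours, against 1060, 1053 and 1190 in control tumours, a log2 ratio of -0.25. Neither sum overlapped between the groups. The ratio of summed 5p to summed 3p reads was 2.46, 2.37 and 2.79 in the stress libraries, against 2.04, 1.45 and 1.41 in the control libraries. This ratio needs no scaling between libraries, since both arms are read in the same library.

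The 5p to 3p ratio was then tested hairpin by hairpin, with limma on log2((5p reads + 0.5)/(3p reads + 0.5)) for all hairpins with a mean of at least 10 reads on each arm. This ratio was chosen after the split by arm had been seen and recombines the same reads, so its direction follows from that split and is no independent support. Of 168 hairpins tested, 26 belonged to the 4 families, 25 of them inside Sfmbt2 and mir-466i on chromosome 13. The log2 ratio was higher in stress for all 26, by a median of 0.56 and a range of 0.08 to 1.32. Among the 142 other hairpins it was higher in 70, with a median of -0.01. The 26 hairpins drew on 20 5p names and 21 3p names. Some of these names have identical counts, such as miR-669a-5p and miR-669p-5p, and were not merged in this count. Many hairpins therefore share reads and are not separate measurements.

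Benjamini-Hochberg adjustment over the 168 hairpins called 3 cluster ratios higher and 0 lower, where 3.57% of all hairpins were called higher and 2.38% lower. In limma the SE and p of a ratio also draw on the spread of all 168 hairpins, among them cluster hairpins that share reads. They do not rest on the spread of its own 6 libraries alone. The stress libraries lay above the control libraries in 12 of the 26, where 15.5% of all hairpins did so. They lay below in none, where 7.74% of all hairpins did so. For each of these 12 the exact permutation p is 0.1, the smallest that 3 stress and 3 control libraries allow. That value follows from the lack of overlap by which they were picked, so it adds nothing to it.

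The hairpin mir-467e (chr2:10505721-10505807) rose most among the 3 called. Its 5p to 3p ratio was 16.2, 11.7 and 19.2 in stress tumours, against 6.74, 3.72 and 9.36 in control tumours. The log2 difference was 1.32 ± 0.31 (SE, limma adjusted p = 0.00251). It rested on few 3p reads, 29, 29 and 13 in the stress libraries and 42, 68 and 41 in the control libraries.

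The ratio of mir-467a-1 (chr2:10476346-10476418), the first of the tandem mir-467a copies, also rose. It was 6.29, 5.48 and 5.996 in stress tumours, against 4.31, 3.36 and 2.59 in control tumours, a log2 difference of 0.82 ± 0.20 (limma adjusted p = 0.00279). Its reads cannot be assigned to 1 copy, and they rested on 138 to 379 reads of the 3p strand per library.

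The third was mir-466c-1 (chr2:10481534-10481617), a hairpin with more 3p than 5p reads. Its ratio was 0.594, 0.638 and 0.545 in stress tumours, against 0.429, 0.370 and 0.285 in control tumours, a log2 difference of 0.73 ± 0.22 (limma adjusted p = 0.0239). In each of the 3 the lowest stress library was above the highest control library. The call of mir-466c-1 was lost without stress library 1 (limma adjusted p = 0.0900), stress library 2 (0.102), control library 2 (0.152) or control library 3 (0.211). That of mir-467e was lost without control library 2 (0.229), and that of mir-467a-1 without control library 3 (0.0800).

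The direction of the difference did not depend on which arm was the abundant one. Of the 26 hairpins, 12 had more 5p reads and 14 more 3p reads. Of the mir-466 hairpins 10 of 14 had more 3p reads, and their median log2 ratio was -0.68 in stress and -1.29 in control tumours. The 4 mir-467 hairpins had medians of 3.25 in stress and 2.18 in control tumours, and the 6 mir-669 hairpins 2.27 and 1.99. Both mir-297 hairpins had more 3p reads, with medians of -0.83 in stress and -1.20 in control tumours. The smallest difference was that of mir-669p-1, 0.08 ± 0.26, with overlapping groups.

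**Figure D3:**
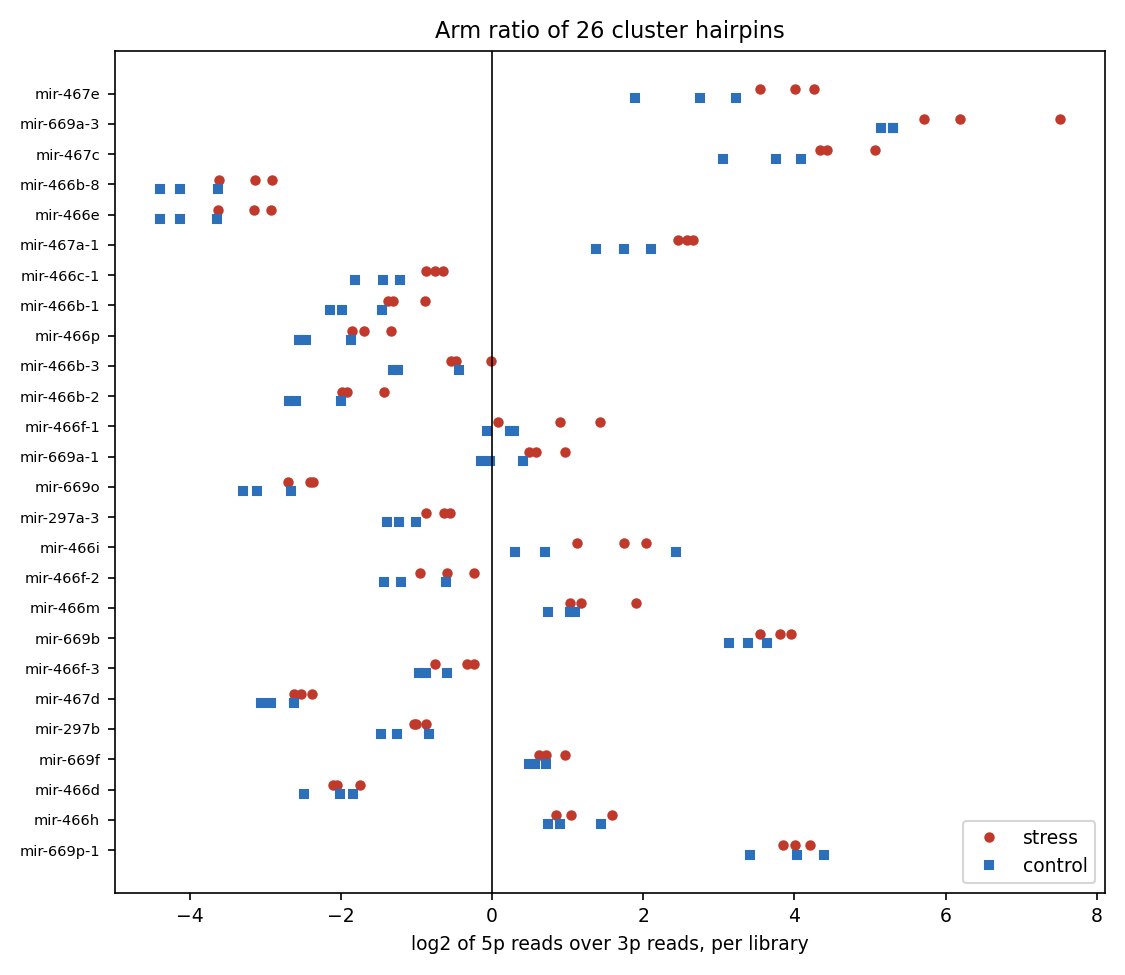
Log2 of 5p over 3p reads in each library for the 26 cluster hairpins with enough reads on both arms, sorted by the difference between groups, stress as circles above control as squares. Stress means lie to the right of control means in every hairpin, on both sides of 0, and the groups do not overlap in 12 of them.

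The control libraries were not alike in this ratio or in muscle miRNAs. The median log2 ratio over the 26 hairpins was -0.55, -0.40 and -0.13 in the stress libraries, against -0.51, -1.06 and -1.09 in the control libraries. Control library 1 thus lay within the stress range by this median. The summed muscle miRNAs (miR-1a-3p, miR-133a-3p and miR-206-3p, none of them at 0) had 13760, 14798 and 126 CPM in stress libraries, against 17028, 58924 and 61511 in control libraries. Control library 1, with muscle miRNAs near those of stress libraries 1 and 2, had a summed 5p to 3p ratio of 2.04, against 2.46 and 2.37 in these 2 stress libraries. Hairpin by hairpin, control library 1 was at or above the lowest stress library in 11 of the 26.

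With the muscle sum as a covariate, an alternative chosen after seeing the data, 0 cluster hairpins were called and the ratio was higher in stress in 92.3% of them. The log2 difference was then 1.04 for mir-467e (limma adjusted p = 0.143), 0.73 for mir-467a-1 (0.108) and 0.77 for mir-466c-1 (0.108). The share of all hairpins called in this fit is not given here. All stress libraries lay below all control libraries in the muscle sum, so fits with this covariate cannot separate muscle from stress. In the edgeR test of single miRNAs with the same covariate, 0 members were called. The log2 fold change was then -0.24 for miR-669a-3-3p, -0.25 for miR-466f-3p, -0.09 for miR-669a-3p, -0.06 for miR-467a-3p, -0.18 for miR-466e-3p and -0.19 for miR-466b-3p. Each of these 3p strands was closer to 0 by more than 1.5 times, as was miR-669c-5p at 0.26, while miR-466d-3p moved away from 0, to -0.26. Other 3p strands were closer to 0 by a factor of less than 1.5: miR-467e-3p at -0.59, miR-467c-3p at -0.69, miR-466i-3p at -0.43 and miR-466a-3p at -0.18. Among 5p strands, miR-467a-5p at 0.65, miR-467c-5p at 0.31 and miR-466c-5p at 0.58 moved away from 0. By less than 1.5 times, miR-467e-5p at 0.48, miR-297a-5p at 0.45, miR-669b-5p at 0.26 and miR-669a-5p at 0.21 were closer to 0. The 2 endothelial miRNAs summed to 5286, 5091 and 4670 CPM in stress libraries, against 6357, 8194 and 10373 in control libraries. The 6 epithelial miRNAs summed to 5637, 4355 and 4053 in stress libraries, against 4268, 3236 and 2246 in control libraries. None of these 8 was at 0 over all libraries. Depth moved too, since control libraries 2 and 3 were the deepest. The part of muscle in the ratio cannot be told apart from stress, and that of endothelial and epithelial cells and of depth was not tested.

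**Figure D4:**
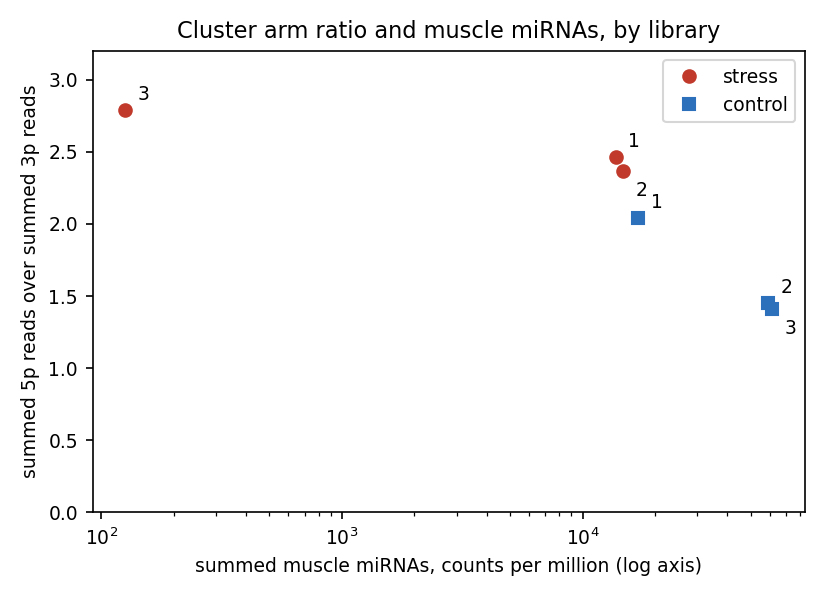
Ratio of summed 5p to summed 3p reads of the cluster in each library (numbered) against the summed muscle miRNAs in CPM (log axis), stress as circles and control as squares. The 3 stress libraries have ratios from 2.37 to 2.79 and control library 1 has 2.04, while control libraries 2 and 3, the richest in muscle miRNAs, have 1.45 and 1.41.

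Along the intron, both repeated and single-copy hairpins gave abundant strands. The mir-467a copies start between 9683 and 36610 bases from the first hairpin and the mir-669a copies between 7770 and 43501. Since their reads are counted again at every copy, the level at each copy is that of the shared sequence. An exception is the 3p strand of mir-669a-3, miR-669a-3-3p, at 6.35 CPM over the 6 libraries. Single-copy hairpins varied widely: miR-669c-5p averaged 415 ± 64.9 CPM in stress and 306 ± 63.7 in control tumours, and miR-669b-5p 75.7 ± 2.47 and 61.5 ± 7.79 (SD, n = 3 each). Others, such as miR-669h-3p at the far end of the cluster, were nearly absent, at 0.972 CPM over the 6 libraries.

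**Figure D5:**
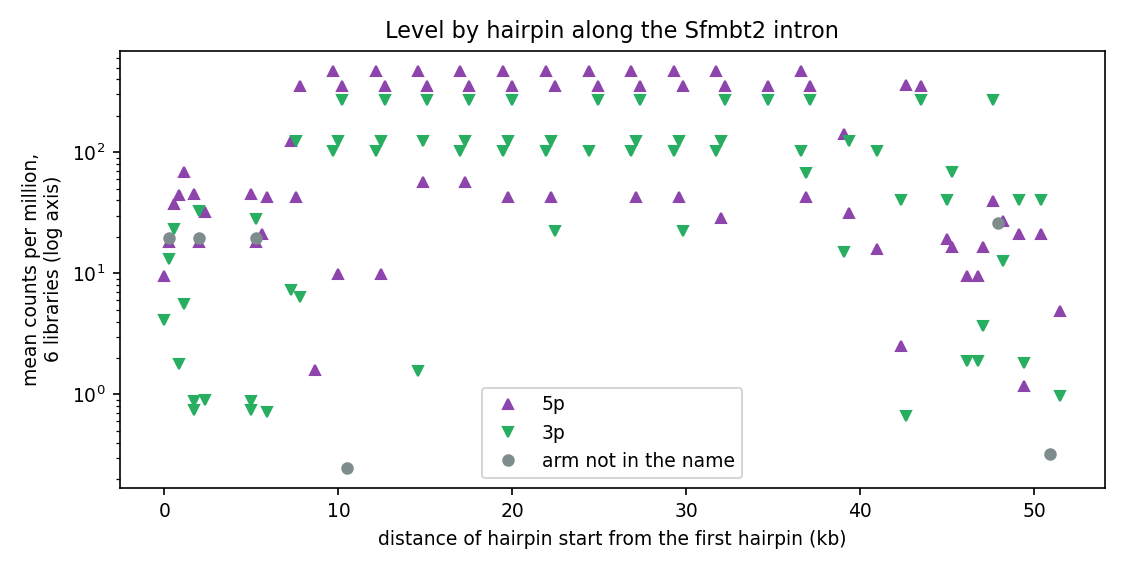
Mean CPM over the 6 libraries (log axis) of each mature strand at each cluster hairpin, against the distance of the hairpin start from the first hairpin in kilobases, with 5p, 3p and unnamed arms by symbol. The rows of equal level between about 8 and 44 kilobases are mostly the repeated mir-467a, mir-669a and mir-466b copies, whose reads are shared. Some copies differ: miR-466b-5p is at 42.8 CPM at most copies but at 28.8 at mir-466b-2 and 9.94 at mir-466b-8. The strand miR-466b-3p is at 67.7 CPM at mir-466b-3.

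The host gene was slightly higher in stress, short of the threshold. Sfmbt2 mRNA had log2 values of 9.44, 9.49 and 9.70 in stress tumours, against 9.24, 9.34 and 9.29 in control tumours. Every stress library was above every control library, where 12.1% of the 14098 tested genes did the same. The log2 difference was 0.25 ± 0.08 (SE), with a limma p of 0.0141 and an adjusted p of 0.188. With the mean of 6 muscle genes as a covariate the difference was 0.19 with an adjusted p of 0.613. That muscle mean was 8.81, 9.04 and 7.49 in stress mRNA libraries, against 8.61, 9.86 and 10.09 in control mRNA libraries. Other marker lists moved as well. The 3 tested neutrophil genes were all higher in stress, with a median difference of 0.86, while Ly6g, a defining marker, was near 0 in both groups. Their 4-gene mean was 6.92, 6.58 and 7.29 in stress libraries, against 6.37, 6.11 and 6.28 in control libraries. Of 5 fibroblast genes 4 were lower, with a median of -0.67, and their mean was 13.30, 13.11 and 12.95 in stress libraries, against 13.21, 13.90 and 13.70 in control libraries. All 4 endothelial genes were lower, with a median of -0.40, and their mean was 9.31, 9.09 and 9.13 in stress libraries, against 9.46, 9.55 and 9.66 in control libraries. None of these genes was called. The part of muscle in the Sfmbt2 difference cannot be told from the covariate fit, and that of these 3 cell types was not tested. Among all tested genes, 8.26% were higher and 9.15% lower at an unadjusted p under 0.05, and 0.0213% were called higher and 0.0142% lower after adjustment.

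Genes that make and use miRNAs were nearly even between the groups. Of 21 listed, 19 were tested, 10 of them higher and 9 lower in stress, and 0 were called. The 2 with the smallest p were Ran, the GTPase that drives export of hairpins from the nucleus with Exportin-5, and Ago2, the Argonaute that can cut its targets. Ran had log2 values of 12.06, 11.98 and 12.08 in stress tumours, against 12.23, 12.25 and 12.21 in control tumours (difference -0.19 ± 0.05, limma adjusted p = 0.143). Ago2 had 12.95, 12.76 and 13.02 in stress tumours, against 12.80, 12.79 and 12.67 in control tumours (0.16 ± 0.08, adjusted p = 0.355). Named here for their role and not by rule, Drosha and Dicer1, the 2 enzymes that cut the hairpins, differed by -0.02 ± 0.05 and -0.09 ± 0.05. The listed Lin28a and Lin28b, which block processing of let-7 hairpins, had mean log2 values of 0.98 and 0.11 in stress tumours and 0.99 and 0.12 in control tumours, under the minimum for testing.

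Sfmbt2 belongs to a small class of genes imprinted through maternal H3K27me3, a histone mark written by the Polycomb complex PRC2. The list held 5 such genes, of which 3 were higher and 2 lower in stress, with 0 called. Beside Sfmbt2 the smallest p was that of Gab1, a docking protein of growth factor receptors. It had log2 values of 8.99, 8.98 and 9.03 in stress tumours, against 8.81, 8.82 and 8.84 in control tumours (0.18 ± 0.05, limma adjusted p = 0.166). Slc38a4, an amino acid transporter gene chosen here after its values were seen, went the other way. It had 4.51, 4.55 and 4.43 in stress tumours, against 4.57, 4.86 and 4.74 in control tumours (-0.23 ± 0.08, limma adjusted p = 0.209).

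Of 11 genes that write or keep imprints, 10 were tested, 2 higher and 8 lower in stress, again with 0 called. The PRC2 methyltransferase Ezh2 had log2 values of 9.95, 9.89 and 9.83 in stress tumours, against 10.18, 10.17 and 10.09 in control tumours. The difference was -0.25 ± 0.06 (limma adjusted p = 0.120). Uhrf1, which brings Dnmt1 to newly copied DNA, had 11.14, 11.12 and 10.99 in stress tumours, against 11.29, 11.47 and 11.35 in control tumours. The difference was -0.29 ± 0.07 (limma adjusted p = 0.129). For both, every stress library was below every control library, where 12.3% of tested genes did the same. The median difference of the list was -0.10, against 0.00 for all tested genes.

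The neighbours of Sfmbt2 on chromosome 2 were read in the same way, from the 4 protein-coding genes nearest on each side. Of the 7 tested, 5 were higher and 2 lower in stress, with 0 called. The smallest p was that of Pfkfb3, which makes the glycolysis activator fructose-2,6-bisphosphate and lies at chr2:11471433-11554077, beyond Prkcq. It had log2 values of 10.75, 10.90 and 10.98 in stress tumours, against 10.19, 10.37 and 10.29 in control tumours. The difference was 0.59 ± 0.07 (limma adjusted p = 0.0647). The next was Atp5c1, a subunit of the mitochondrial ATP synthase, at 0.12 ± 0.05 (limma adjusted p = 0.328). Named here for its position, Itih5, the nearest gene upstream, had 7.78, 8.30 and 7.01 in stress tumours, against 8.23, 9.67 and 8.17 in control tumours, and the groups overlapped.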

How the data were processed

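The miRNA table holds raw counts per mature miRNA and hairpin as deposited; no source used here names the miRNA counter. The mRNA table holds deposited log2 values; the base, taken as 2, and the transform are not stated, nor is the depth behind them. Listed in the submitters' processing notes are bcl2fastq and kallisto 0.46.1, with the build mm10. For each mature miRNA the hairpin row with the highest total was kept. Counts were fitted with edgeR 4.0.16 (TMM, filterByExpr, robust quasi-likelihood) over 462 miRNAs. The log2 values were fitted with limma 3.58.1 (trend, robust) over 14098 genes with a mean of at least 4. Hairpin ratios were fitted with limma, and DESeq2 1.42.0 in R 4.3.3 was an alternative. All tests were two-sided, without covariates, with Benjamini-Hochberg adjustment over the whole table and 0.05 as the threshold. An SE of an edgeR fold change is the fold change over the root of its F statistic. The fits were checked on simulated data. Hairpins were placed by GENCODE M21 and mature sequences came from RefSeq.

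The members and all lists were chosen with earlier results of these data known; the split by arm, with its hairpin test, was chosen after seeing the data in hand. The rule for named members took the 12 most abundant, any called, the 5 smallest p in each direction, the 2 on each side of the filter and an example of each identical set. In the mRNA lists it took Sfmbt2, any called and the 2 smallest p of each list. Tut4 and Tut7 stand in the table under the older symbols Zcchc11 and Zcchc6. Alternatives changed normalization, filter, covariate, pseudocount and the handling of shared names, or left out each library.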

Additional observations from a re-analysis of the deposited data

How the results depend on the processing

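The 12 most abundant members with those of smallest p, the 3 called hairpins, the sums and Sfmbt2 were recomputed under the alternatives that applied to each. None of these changed direction where it was recomputed. With a mean of at least 50 reads required per arm, mir-467e had too few 3p reads to be tested. Only the other 2 of the 3 called hairpins were then called. DESeq2 called 10 miRNAs higher and 34 lower, and edgeR without a filter on low counts 18 and 51, with 1 cluster member, miR-467a-5p, among the higher. Leaving out each library in turn gave 0 to 18 miRNAs higher and 0 to 64 lower, all calls coming without control library 1, and 0 to 1 cluster members. It gave 1 to 9 cluster hairpin ratios called higher, 92.3% to 100% of them above 0, and an Sfmbt2 difference of 0.17 to 0.30. The most hairpin calls, 9, came without control library 1 and the fewest, 1, without control library 2 or 3. The calls among all hairpins in these fits are not given here, and miRNA calls also rose without control library 1. These counts are therefore no result about the cluster. Among alternatives chosen after seeing the data, the muscle covariate left 0 cluster hairpin calls, with the share of all hairpins again not given. Names within Sfmbt2 alone summed to 3061 CPM in stress and 2654 in control tumours. Summing all hairpin rows gave 15293 in stress and 13202 in control tumours, and counting every name 5027 and 4470, because shared reads are then counted again.

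The labels do not say whether the replicate numbers pair stress and control libraries, and the main tests did not pair them. Deviations of same-numbered libraries correlated at -0.48, 0.32 and -0.13 in the miRNA table and -0.08, 0.08 and -0.02 in the mRNA table. With so few libraries these values cannot settle whether the libraries are paired. With the replicate number as a block, 0 miRNAs were called and Sfmbt2 differed by 0.25 (limma adjusted p = 0.226). The same 3 cluster hairpin ratios were called. The share of all hairpins called in this fit is not given here, so that count is no result about the cluster. Few reads limit the weakest strands: the filter on low counts left out 24 distinct members.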
